A study of Mus musculus with 2 samples.

Results

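A set of 8 genes whose products restrain T cell activation was followed in single CD4 T cells, out of 35976 genes in the count tables. Cblb, Cbl, Itch, Rnf128 and Nedd4 encode ubiquitin ligases, Dgka and Dgkz encode diacylglycerol kinases, and Ubash3a encodes an adaptor that is neither and that binds Cbl proteins and ubiquitin. The 8 were picked by name, for their known role and with earlier results of these same cells in view, among them the contrast between host genotypes. The values that compare the genotypes are therefore a description, given without a test.

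The study asked how the IL-13 signal to dendritic cells bears on helper T cells that support antibody responses. OTII CD4 T cells, which carry a transgenic receptor for ovalbumin, were transferred into host mice and recovered from the spleen on day 7 after CAS, an abbreviation the labels do not explain, and a second priming. The first group was a pool of 3 IL13Ra1f/f, CD11cCre/+ hosts, called deleted hosts here, and the second a pool of 2 C57BL/6 hosts, called control hosts. Single cells were sorted into 96-well plates, and the SmartSeq2 protocol gave reads over the whole length of their transcripts. CD11c-Cre acts mainly in dendritic cells, so the receptor gene was deleted in cells of the host and not in the transferred T cells. The gate took propidium iodide negative, V beta 5.1 or 5.2 positive, CD4 positive cells and named no congenic marker, so CD4 cells of the host that use V beta 5 could be among those sorted. Both groups were on the same day after the same transfer, and the labels give no age.

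T cell receptor engagement starts a chain of tyrosine kinases that leads to phospholipase C gamma 1, which makes the membrane lipid diacylglycerol. Diacylglycerol in turn recruits RasGRP1 and protein kinase C theta, which carry the signal on to Ras, AP-1 and NF-kappaB. Ubiquitin ligases of the CBL and NEDD4 families act on proteins close to the receptor, and the diacylglycerol kinases remove the lipid by turning it into phosphatidic acid. Both arms are known for their part in T cell anergy, the unresponsive state that follows receptor engagement without costimulation.

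Each pool held 368 cell wells on 4 plates. The deleted pool had 542650671 reads in genes, with a median of 1499762 per cell, and the control pool 573105030 reads, with a median of 1592794 per cell. The shallowest well, A12 of deleted plate 4, held 9905 reads, within the 6698 to 12348 reads of the 9 wells without a cell. It was kept as a cell, and a single read of a gene there is 101 CPM. Levels are given as CPM, the reads of a gene for every 1000000 gene reads, summed over the cells of a plate or pool. Positive cells are those with 10 CPM or more of the gene in question. The 4 plates of each pool came from the same pooled mice and are not biological replicates, and plate and host genotype cannot be told apart because no plate held cells of both pools. With 1 pooled sample per genotype there is no replicate check and no p-value, and all intervals cover counting error only. The cells carried T cell markers in both pools, with Cd4 at 783 CPM in deleted hosts and 915 CPM in control hosts and Cd3e at 212 CPM in deleted hosts and 221 CPM in control hosts. Summed markers of B cells, NK cells, macrophages, dendritic cells, neutrophils, red cells and platelets were at most 22.9 CPM in deleted hosts and 23.1 CPM in control hosts. A few of these markers still reached 10 CPM in many cells. Lyz2 was positive in 285 cells of deleted hosts and 223 of control hosts. Hba-a1 was positive in 123 and 108 cells of deleted and control hosts, and Mpo in 51 and 39. Many other markers were positive in few or no cells. The source of these reads was not tested. The CD8 genes summed to 9.47 CPM in deleted hosts and 26.5 CPM in control hosts, with Cd8a at 0.199 CPM in deleted hosts and 0.155 CPM in control hosts and the rest from Cd8b1 in 7 cells of deleted hosts and 16 of control hosts, and their part in the results was not tested.

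Cblb was the 1 member that was both past 2-fold and without overlap between the plates of the pools, as were 0.722% of the 7207 genes that reached 20 CPM in at least 1 pool. It encodes Cbl-b, a RING-type ligase that sets the need for CD28 costimulation in T cells, and lies on chromosome 16 (GRCm38, 52031225 to 52208048, plus strand). Plates 1 to 4 of the deleted hosts were at 236.0, 261.0, 250.4 and 250.8 CPM. Plates 1 to 4 of the control hosts were at 109.7, 110.6, 174.3 and 70.6 CPM. All 4 deleted plates lay above all 4 control plates, the deleted plates were close to each other, and control plates 3 and 4 were the high and low ends of a wider spread. The pool levels were 249.9 CPM in deleted hosts (Poisson 95% interval 248.5 to 251.2) and 116.0 CPM in control hosts (115.1 to 116.9). That is a log2 ratio of 1.10 for deleted over control, computed after adding 1 CPM to each, or 2.14-fold. Without control plate 4 the log2 ratio was 0.92, under 2-fold, and without control plate 3 it was 1.36.

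The Cblb difference was seen in the number of positive cells and in the level per positive cell. In deleted hosts 143 cells were positive, 38.9% of 368 (exact 95% interval 33.9 to 44.0%), against 86 cells or 23.4% in control hosts (19.1 to 28%). The 4 deleted plates held 35, 36, 35 and 37 positive cells, and the 4 control plates 20, 25, 22 and 19, so the plates did not overlap. Median depth in deleted hosts was 1557593 reads in Cblb-positive and 1464513 in Cblb-negative cells. In control hosts it was 1580506 reads in Cblb-positive and 1596483 in Cblb-negative cells. In the 364 cells of deleted hosts and 366 of control hosts with 500000 reads or more, thinned to that depth, the shares were 38.7% in deleted hosts and 23.8% in control hosts. Within positive cells the median level was 478 CPM in deleted hosts and 325 CPM in control hosts. Plate medians of positive cells ran from 409 to 563 CPM in deleted hosts and from 289 to 372 CPM in control hosts, again without overlap, whereas plate means of positive cells overlapped, at 574 to 659 CPM in deleted hosts and 346 to 626 CPM in control hosts. The 10 highest cells held 23.5% of all Cblb reads in deleted hosts and 41.0% in control hosts.

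Ubash3a was the other member whose plates did not overlap, beside 1.82% of the 7207 genes with every deleted plate above every control plate. It encodes UBASH3A, also called STS-2, which joins Cbl proteins at the T cell receptor and dampens its signal, and lies on chromosome 17 (31207873 to 31246892, plus strand). The 4 deleted plates were at 560.1, 544.8, 472.1 and 487.9 CPM, and the 4 control plates at 354.8, 404.8, 338.6 and 292.2 CPM. Every deleted plate was above the highest control plate. The pools were at 514.7 CPM in deleted hosts (512.8 to 516.6) and 346.6 CPM in control hosts (345.1 to 348.2), a log2 ratio of 0.57 or 1.48-fold. Positive cells made up 41.8% of deleted-host cells (154 cells, interval 36.8 to 47.1%) and 35.3% of control-host cells (130 cells, 30.4 to 40.4%). These 2 intervals overlap, although the plates, with 38 to 40 positive cells in deleted hosts and 30 to 34 in control hosts, did not. The median level in positive cells was 1108 CPM in deleted hosts and 830 CPM in control hosts. Plate medians ran from 1046 to 1204 CPM in deleted hosts and from 789 to 933 CPM in control hosts, without overlap.

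**Figure D1:**
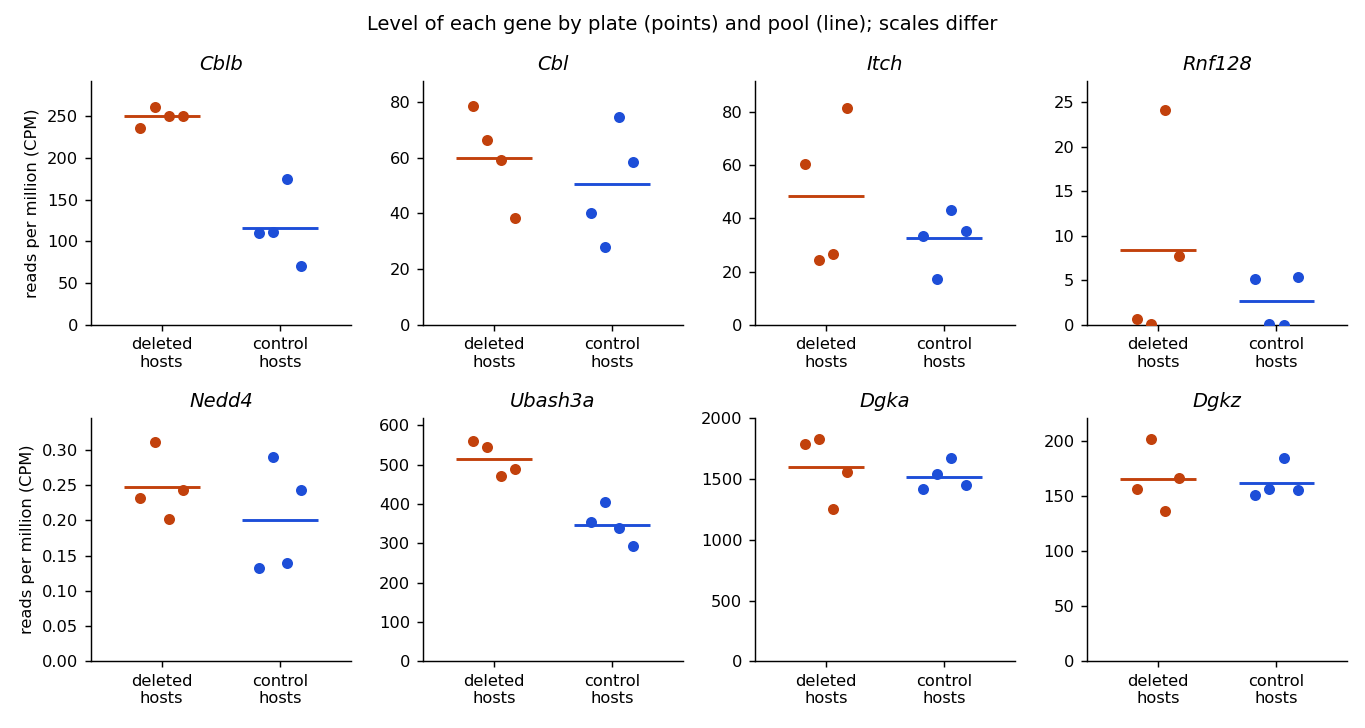
Level of each of the 8 genes in CPM (vertical axis, reads of the gene for every 1000000 gene reads, a different scale in each panel) on the 4 plates of deleted hosts (left, orange points) and of control hosts (right, blue points), with the pool level as a line. The plates of the 2 pools are apart for Cblb and Ubash3a and overlap for the other 6 genes.

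The count of members has to be read beside all genes. Of the same 7207 genes, 2.75% had a log2 ratio of 1 or more. Among the 6 members at that level, 1 passed the fold (Cblb) and 2 had separate plates (Cblb and Ubash3a). With a minimum of 5 CPM, Rnf128 joined Cblb past the fold, against 5.98% of 9764 genes. Cblb and Ubash3a were also the 2 members whose plate shares of positive cells did not overlap, against 1.25% of 4639 genes with a share of 10% or more that were higher in this way. Since the genotype contrast was known when the members were chosen, nothing is read from these counts. The median log2 ratio was 0.56 over the 7 members at 5 CPM or more and -0.04 over all 9764 such genes. At 20 CPM or more it was 0.40 over the 6 members and -0.04 over the 7207 genes. The value of 0.56 is that of Itch, which was 0.16 without deleted plate 4, and nothing is read from these medians either.

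The 2 genes with separate plates are shown with the bases around their start sites, and Cbl, the closest relative of Cblb, is shown beside them because its plates overlapped. Sequences are from RefSeq on GRCm38.p6, 250 bases before to 50 bases after the start site, written 5′ to 3′ on the gene's own strand. Capitals mark matches to the motifs searched on both strands.
Cblb, chr16:52031299-52031598, plus strand: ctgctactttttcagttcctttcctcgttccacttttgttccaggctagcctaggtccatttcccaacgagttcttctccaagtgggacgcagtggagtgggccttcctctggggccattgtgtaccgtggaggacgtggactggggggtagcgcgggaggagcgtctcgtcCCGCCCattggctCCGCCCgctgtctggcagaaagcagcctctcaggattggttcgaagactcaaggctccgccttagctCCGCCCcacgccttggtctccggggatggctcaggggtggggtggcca
Ubash3a, chr17:31207816-31208115, plus strand: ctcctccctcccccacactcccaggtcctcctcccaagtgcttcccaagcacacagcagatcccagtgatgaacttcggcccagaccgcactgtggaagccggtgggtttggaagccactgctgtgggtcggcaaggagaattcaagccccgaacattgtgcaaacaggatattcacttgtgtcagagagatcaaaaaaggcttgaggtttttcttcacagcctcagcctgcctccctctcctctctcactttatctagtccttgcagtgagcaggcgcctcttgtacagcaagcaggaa
Cbl, chr9:44233997-44234296, minus strand: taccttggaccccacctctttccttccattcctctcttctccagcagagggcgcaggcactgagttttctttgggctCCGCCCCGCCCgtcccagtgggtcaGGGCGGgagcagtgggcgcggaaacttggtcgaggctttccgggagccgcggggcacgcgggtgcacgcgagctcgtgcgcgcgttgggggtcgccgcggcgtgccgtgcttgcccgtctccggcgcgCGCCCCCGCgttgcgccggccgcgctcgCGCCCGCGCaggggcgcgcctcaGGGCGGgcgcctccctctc

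The motifs were TGANTCA for AP-1, GCGNGGGCG for EGR, GGAAAA for NFAT, TGTTTAC for FOXO, GGGCGG for SP1, TGACGTCA for the cyclic AMP response element and CACGTG for an E-box. The Cblb window held the SP1 letters on its minus strand at positions -78, -65 and 3 from the start site, in a stretch of 61.3% G and C. The Ubash3a window, at 54.7% G and C, held none of the 7 motifs. The Cbl window, at 74.0% G and C, held the EGR letters at positions -20 and 9 and the SP1 letters at 4 positions, 2 of them in overlapping runs. Of 32817 windows of this length, 35.6% held the SP1 letters, 5.56% the EGR letters, 7.81% the AP-1 letters and 23.3% the NFAT letters. FOXO letters were in 3.65%, the cyclic AMP element in 1.79% and the E-box in 7.15%. The EGR letters share GGGCG with the SP1 letters, so matches of these can overlap. Among the 12 windows found for 7 of the 8 members, the AP-1 letters occurred once, in a window of Nedd4. A match describes letters only.

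Cbl encodes c-Cbl, the other RING-type CBL ligase of T cells, and lies on chromosome 9 (44142976 to 44234049, minus strand). Plates 1 to 4 were at 78.5, 66.2, 59.2 and 38.3 CPM in deleted hosts and at 40.1, 27.9, 74.5 and 58.3 CPM in control hosts. The ranges overlap almost completely, and the pools were at 59.8 CPM in deleted hosts and 50.5 CPM in control hosts, a log2 ratio of 0.24. Positive cells numbered 44 in deleted hosts (12%) and 43 in control hosts (11.7%), nearly the same number. Its reads were held by few cells: the 10 highest cells had 68.3% of them in deleted hosts and 62.0% in control hosts.

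Itch encodes a HECT-type ligase of the NEDD4 family that acts on PLC gamma 1 and on the AP-1 subunit JunB, and lies on chromosome 2 (155133509 to 155226855, plus strand). Its deleted plates were at 60.4, 24.4, 26.6 and 81.7 CPM and its control plates at 33.5, 17.4, 43.2 and 35.3 CPM. Deleted plates 1 and 4 were above every control plate, and deleted plates 2 and 3 were inside the control range. The pools, at 48.5 CPM in deleted hosts and 32.5 CPM in control hosts, gave a log2 ratio of 0.56, close to that of Ubash3a, but it was 0.16 when deleted plate 4 was left out and 0.78 when deleted plate 2 was. The share of positive cells was 13.6% in deleted hosts (50 cells) and 13.3% in control hosts (49 cells), and the median level in positive cells was 112 CPM in deleted hosts and 117 CPM in control hosts. The 10 highest cells held 71.6% of Itch reads in deleted hosts and 69.8% in control hosts.

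Rnf128, which encodes the transmembrane ligase GRAIL of anergic T cells, was nearly silent (chromosome X, 139563316 to 139673145, plus strand). Its plates were at 0.655, 0.0592, 24.1 and 7.71 CPM in deleted hosts and at 5.19, 0.0870, 0.0140 and 5.38 CPM in control hosts. The pool levels of 8.36 CPM in deleted hosts and 2.72 CPM in control hosts gave the largest log2 ratio of the 8 genes, 1.33. They rested on single cells: 1447 reads in D12 and 1870 in C12 of deleted plate 3 and 1104 in E3 of deleted plate 4, against 742 in A10 of control plate 1 and 787 in F8 of control plate 4. Without deleted plate 3 the log2 ratio was 0.09. Of the 5 positive cells in deleted hosts (1.36%), 1 was the well with 9905 reads, where it had a single Rnf128 read, and control hosts had 2 positive cells (0.543%).

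Nedd4, which encodes the HECT-type ligase that gave the NEDD4 family its name, was not detected as a level in either pool (chromosome 9, 72662346 to 72749852, plus strand). The 368 cells of deleted hosts held 134 reads in all (0.247 CPM) and the 368 cells of control hosts 115 reads (0.201 CPM). No cell of 368 in either pool was positive at 10 CPM, and a count of 0 in 368 cells allows a share of up to 0.815%. A single Nedd4 read or more was found in 110 cells of deleted hosts (29.9%) and 91 cells of control hosts (24.7%). None was found in the 9 wells named noinput or dw. These wells held only 6698 to 12348 reads each, too few to show a gene at this level. The origin of the single reads was not tested. The highest single cell had 2.98 CPM in deleted hosts and 3.12 CPM in control hosts.

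Dgka, the diacylglycerol kinase alpha gene, was found in more cells than any other member (chromosome 10, 128720134 to 128744855, minus strand). Its deleted plates were at 1791, 1829, 1255 and 1560 CPM and its control plates at 1419, 1539, 1672 and 1453 CPM. Deleted plates 1 and 2 were the highest of the 8 and deleted plate 3 the lowest. The pools were at 1603 CPM in deleted hosts and 1520 CPM in control hosts, a log2 ratio of 0.08. Positive cells made up 83.4% of deleted-host cells (307 cells, interval 79.2 to 87.1%) and 87.5% of control-host cells (322 cells, 83.7 to 90.7%). These intervals overlap, as do the plate shares, at 76.1 to 88.0% in deleted hosts and 84.8 to 92.4% in control hosts. Without deleted plate 3 the shares were 85.9% in deleted hosts and 87.5% in control hosts. At 5 reads or more the shares were 97.8% in both pools. That limit lies within the 4 to 16 Dgka reads of the 9 wells without a cell, so it cannot compare the pools. At 50 CPM or more the shares were 79.3% in deleted hosts and 82.1% in control hosts.

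Dgkz encodes the zeta kinase, which with the alpha kinase is the main diacylglycerol kinase of T cells (chromosome 2, 91932824 to 91975864, minus strand). Its plates were at 156.3, 201.8, 136.4 and 167.0 CPM in deleted hosts and at 151.4, 156.6, 184.9 and 155.5 CPM in control hosts. The pool levels of 165.4 CPM in deleted hosts and 162.1 CPM in control hosts gave a log2 ratio of 0.03, with 57.1% of cells positive in deleted hosts (210 cells) and 56.5% in control hosts (208 cells). The median level in positive cells was 174 CPM in both pools. Its sign changed when single plates were left out, with log2 ratios from -0.08 to 0.11. Exons of both kinase genes overlap a gene on the opposite strand in GENCODE M21. For Dgka these are 105 bases with Pmel, or 2.2% of its exon bases. For Dgkz they are 222 bases with Gm9821, or 3.54%. Reads within these stretches cannot be told apart.

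**Figure D2:**
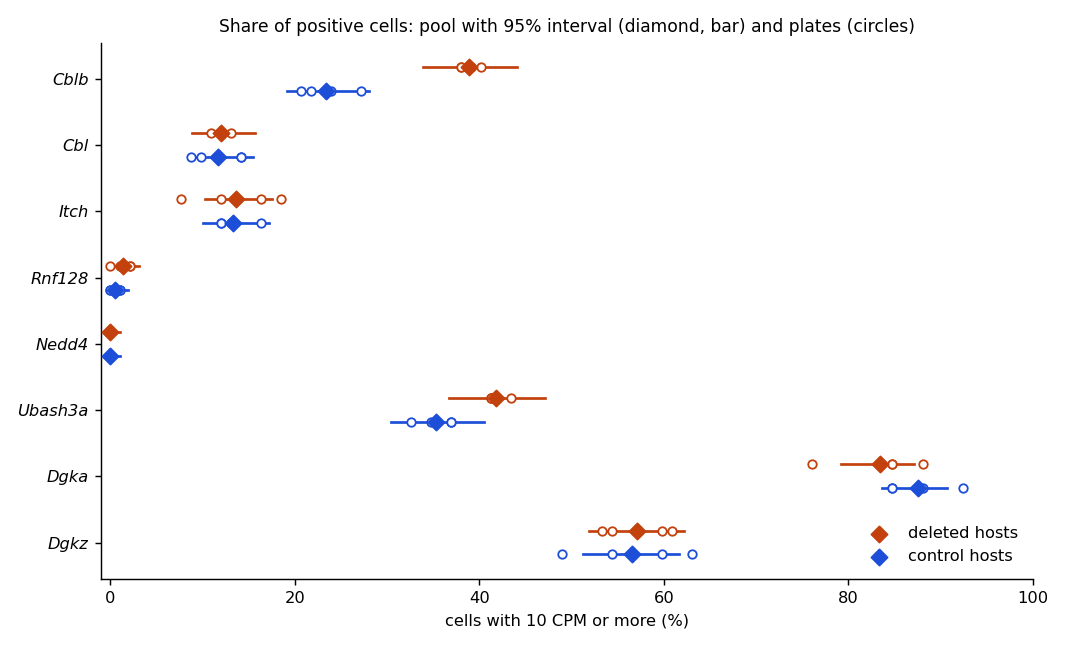
Percent of cells with 10 CPM or more (horizontal axis) for each gene, with deleted hosts (orange) above control hosts (blue). Diamonds are the pools of 368 cells, bars their exact 95% intervals and circles the 4 plates; the intervals of Cblb, 33.9 to 44.0% in deleted hosts and 19.1 to 28% in control hosts, are apart and those of the other genes overlap.

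Set side by side per kilobase of exon, the 8 genes span more than 4 orders of size. The order in deleted hosts was Dgka (337 CPM per kb), Ubash3a (45.8), Dgkz (26.4), Cblb (23.9), Itch (4.99), Cbl (4.85), Rnf128 (2.41) and Nedd4 (0.0225), all in CPM per kb. In control hosts it was Dgka (319 CPM per kb), Ubash3a (30.8), Dgkz (25.9), Cblb (11.1), Cbl (4.09), Itch (3.35), Rnf128 (0.784) and Nedd4 (0.0183). Dgkz and Cblb overlapped across the plates of deleted hosts, at 21.8 to 32.2 and 22.5 to 24.9 CPM per kb. In control hosts Dgkz, at 24.1 to 29.5 CPM per kb, stood above Cblb, at 6.74 to 16.6 CPM per kb, on every plate. Ubash3a stood above Dgkz on the plates of deleted hosts, at 42.0 to 49.8 CPM per kb. In control hosts its range, 26 to 36.0 CPM per kb, overlapped that of Dgkz, but Ubash3a was the higher on each plate. The ranges of Itch and Cbl overlapped in both pools, and the 2 genes changed places between the pools because of deleted plate 4. On that plate Itch was at 8.42 CPM per kb and Cbl at 3.1. Cbl was the higher on the other deleted plates, and on all control plates but plate 1. Rnf128 overlapped both in deleted hosts, at 0.0171 to 6.97 CPM per kb. The lengths are the merged exons of GENCODE M21, and a gene with long rarely used exons gets a lower value by this scale.

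The positive call was set against wells without a cell. The 9 wells named noinput or dw held 6698 to 12348 reads, and a read of 7 of the 8 members was found in at least 1 of them. Dgka had 4 to 16 reads in these wells, with a median of 9, and the other members at most 4. In a cell of median depth, 10 CPM is close to that Dgka background, and 100% of cells in both pools had at least 1 Dgka read. With a second condition of at least 5% of the gene's CPM on its plate, Dgka shares were 76.6% in deleted hosts and 81.3% in control hosts. Cells with any Cblb read made up 85.9% in deleted hosts and 74.2% in control hosts, with plates that overlapped. At 5 reads or more, above the count of any empty well, the Cblb shares were 41.6% in deleted hosts and 26.6% in control hosts, with plates that did not overlap.

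**Figure D3:**
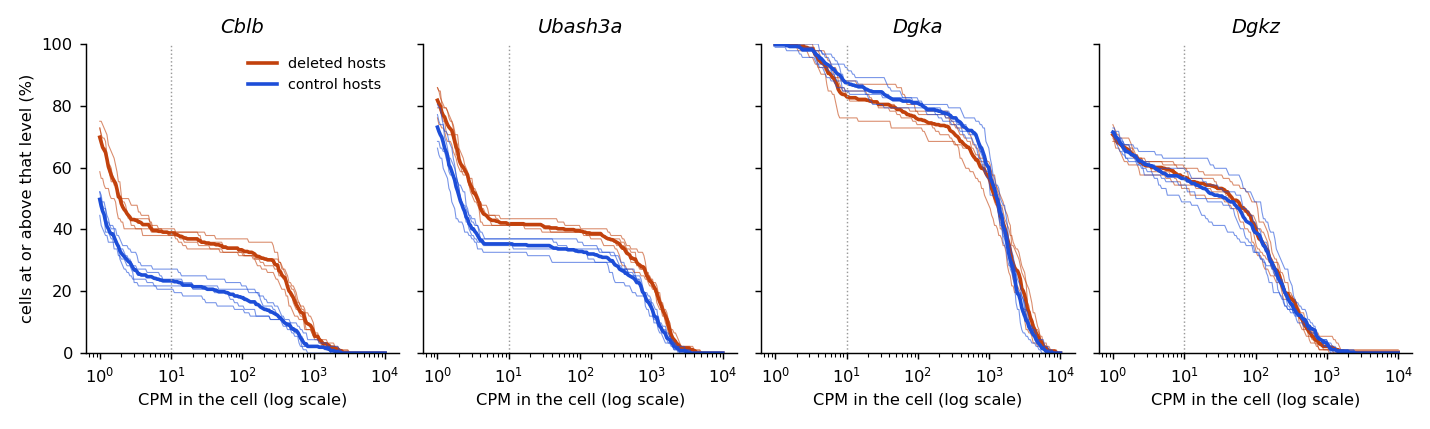
Percent of cells (vertical axis) at or above a level in CPM (horizontal axis, log scale) for 4 genes. Thick lines are the pools (orange deleted hosts, blue control hosts), thin lines the 4 plates of each and the dotted line marks 10 CPM; at 10 CPM the Cblb lines of the plates are apart between pools (38.9% and 23.4% for the pools of deleted and control hosts), and the Dgkz lines overlap.

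Cells positive for 4 or more of the 8 genes made up a larger share in deleted hosts, whereas cells positive for 2 or more numbered 290 in deleted hosts and 290 in control hosts. A mean of 2.48 members was positive per cell in deleted hosts and 2.28 in control hosts, with a median of 2 in both. Cells positive for 4 or more numbered 75 in deleted hosts (20.4%) and 36 in control hosts (9.78%), with plates from 17.4 to 22.8% in deleted hosts and from 6.52 to 14.1% in control hosts. In the cells thinned to 500000 reads the shares were 20.1% in deleted hosts and 9.84% in control hosts. The limit of 4 was chosen after the values were seen, and the count is not independent of the single genes' shares. Cells with none of the 8 numbered 14 in deleted hosts and 2 in control hosts.

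In deleted hosts most pairs of members met in the same cell more often than their shares alone would give, and in control hosts 7 of 15 did. For each of the 28 pairs, the number of cells positive for both was set against the number expected from the shares on each plate. Over the 15 pairs with 5 or more expected cells in each pool, 14 lay above 1 in deleted hosts (ratios 0.985 to 1.36, median 1.11) and 7 in control hosts (0.615 to 1.42, median 0.997). Over all 736 cells, where these average out, the median ratio was 1.02. Cblb and Dgkz were found together in 91 cells of deleted hosts, against 81.7 from the shares, and in 57 cells of control hosts, against 48.9. Dgkz was positive more often in Cblb-positive than in Cblb-negative cells on 8 of 8 plates. Cblb and Ubash3a met in 70 cells of deleted hosts against 59.9 from the shares, and in 31 cells of control hosts against 30.4. Dgka and Dgkz met in 173 cells of deleted hosts against 175.6, and in 182 cells of control hosts against 182.6. Cbl and Ubash3a lay on opposite sides, with 25 cells against 18.4 in deleted hosts and 10 against 15.1 in control hosts. Cblb and Itch did so too, with 24 cells against 19.5 in deleted hosts and 7 against 11.4 in control hosts, as did Itch and Ubash3a (ratios 1.24 in deleted hosts and 0.748 in control hosts) and Itch and Dgkz (1.06 in deleted hosts and 0.765 in control hosts). Pairs of other genes were not counted in this way, and the 15 pairs share genes and cells. Whether the counts of 14 and 7 are particular to these genes therefore cannot be told. The difference between the pools was not tested. Across 736 cells, with plate means subtracted, the correlation of log2 levels between any 2 of the 6 frequent members was -0.07 to 0.08. Within the pools it was -0.09 to 0.11 in deleted hosts and -0.12 to 0.06 in control hosts, where Cbl and Ubash3a had 0.10 in deleted hosts and -0.12 in control hosts, all too weak to be a finding in counts this sparse.

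**Figure D4:**
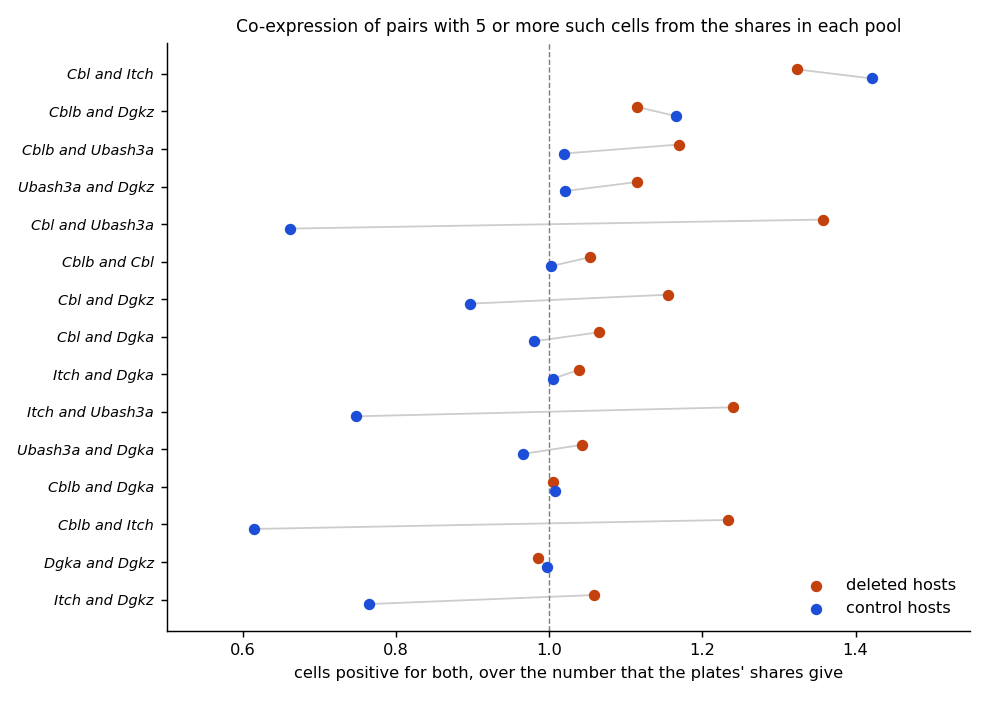
Number of cells positive for both genes of a pair over the number that the plates' shares give (horizontal axis; 1 means equal) for the 15 pairs with 5 or more expected cells in each pool. Deleted hosts are orange and control hosts blue; Cblb and Dgkz lie above 1 in both pools (1.11 in deleted hosts and 1.17 in control hosts), and Cbl and Ubash3a on opposite sides (1.36 in deleted hosts and 0.661 in control hosts).

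The share of Cblb-positive cells was also taken within cells that carried marks of recent receptor signalling. Nr4a1, an early gene induced by receptor signalling, and Cd69, an early activation marker, were both positive in 100 cells of deleted hosts and 51 cells of control hosts. Among these, 51 cells or 51.0% were Cblb-positive in deleted hosts (interval 40.8 to 61.1%) and 11 cells or 21.6% in control hosts (11.3 to 35.3%). In the remaining cells the shares were 34.3% in deleted hosts (92 of 268) and 23.7% in control hosts (75 of 317), and there the plates, at 32.8 to 36.2% in deleted hosts and 22.4 to 26.6% in control hosts, did not overlap. Of the 11 cells in control hosts, 8 were from control plate 2, without which the share was 8.57% (3 of 35). The Cblb share was higher in the double-positive cells on 4 of 4 deleted plates and on 1 of 4 control plates, with 9 to 16 such cells on a control plate. The Cblb level was higher in the double-positive cells on 4 of 4 deleted plates and on 3 of 4 control plates, at 342 CPM in the double-positive and 215 CPM in the other cells of deleted hosts, and 171 CPM and 107 CPM in these classes of control hosts. Share and level thus ran in opposite directions in control hosts. Thinned to 500000 reads, the double-positive shares were 48.6% in deleted hosts and 17.9% in control hosts.

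Dgka was lower in cells positive for Tnfrsf9, the costimulatory receptor 4-1BB that activated T cells express. The 64 Tnfrsf9-positive cells of deleted hosts were at 724 CPM and their 304 negative cells at 1807 CPM. The 46 Tnfrsf9-positive cells of control hosts were at 1101 CPM and their 322 negative cells at 1580 CPM. The positive cells were lower on 8 of 8 plates, with plate levels of 450 to 1129 CPM in deleted hosts and 332 to 1399 CPM in control hosts. In control hosts the gap rested largely on control plate 4, without which the positive cells were at 1352 CPM and the negative cells at 1571 CPM. The Dgka-positive share was 68.8% of Tnfrsf9-positive and 86.5% of Tnfrsf9-negative cells in deleted hosts, and 76.1% and 89.1% of these classes in control hosts. Dgkz ran the other way by share, with 71.9% of Tnfrsf9-positive and 53.9% of Tnfrsf9-negative cells in deleted hosts and 69.6% and 54.7% of these classes in control hosts, and the share was higher in the positive cells on 7 of 8 plates. The Dgkz level was higher in the positive cells on only 4 of 8 plates, at 192 CPM in Tnfrsf9-positive and 159 CPM in Tnfrsf9-negative cells of deleted hosts and 203.8 CPM and 156 CPM in these classes of control hosts. Cblb was positive in 32 of 64 Tnfrsf9-positive and 36.5% of Tnfrsf9-negative cells of deleted hosts, and in 28.3% and 22.7% of these classes in control hosts. Its level was higher in the Tnfrsf9-positive cells on 3 of 8 plates, at 259 CPM in Tnfrsf9-positive and 248 CPM in Tnfrsf9-negative cells of deleted hosts, and 109 CPM and 117 CPM in these classes of control hosts.

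**Figure D5:**
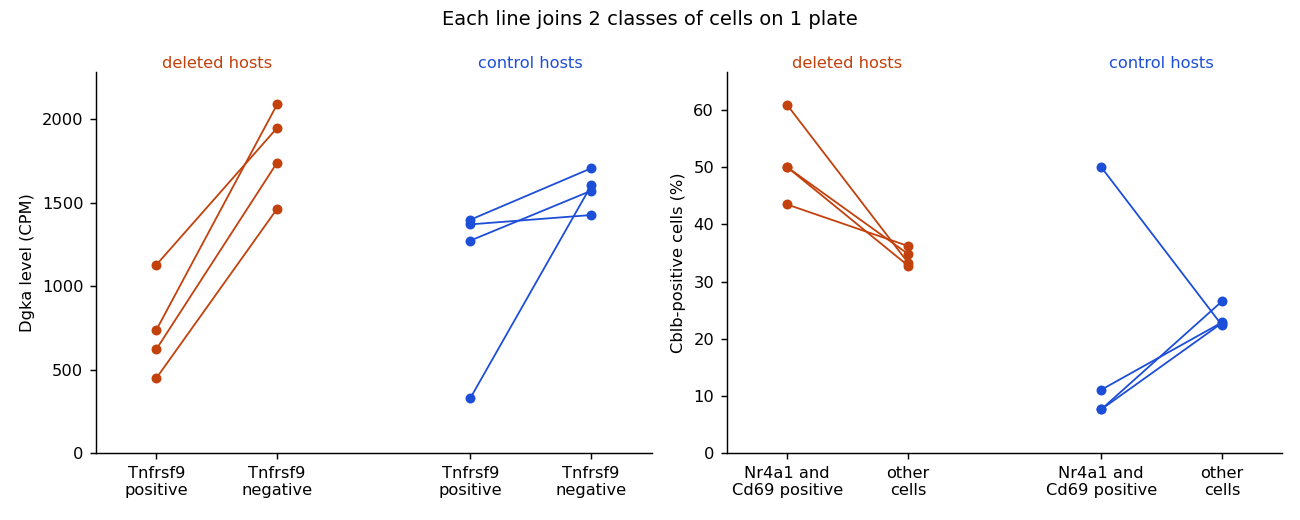
Left, Dgka level (CPM) in Tnfrsf9-positive and Tnfrsf9-negative cells, and right, percent of Cblb-positive cells among those positive for both Nr4a1 and Cd69 and among the other cells. Each line joins the 2 classes on 1 plate, deleted hosts left (orange) and control hosts right (blue); Dgka is lower in Tnfrsf9-positive cells on 8 of 8 plates, and the Cblb share is higher in the double-positive cells on 4 deleted plates and 1 control plate. The Cblb level, not drawn, was higher there on 4 deleted plates and 3 control plates.

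Cxcr5, the receptor that leads T cells into B cell follicles, marked 57 cells of deleted hosts and 46 of control hosts. Cblb was positive in 54.4% of them in deleted hosts and 39.1% in control hosts, against 36.0% and 21.1% of the Cxcr5-negative cells of deleted and control hosts. The share was higher in Cxcr5-positive cells on 8 of 8 plates, although the summed level was higher on only 5. A higher share was not particular to Cblb. It was seen for Dgkz on 7 plates, Ubash3a on 6, Itch on 5, Cbl on 4, Rnf128 on 4, Dgka on 3 and Nedd4 on 0. The levels of Dgkz and Ubash3a were higher on only 2 and 3 plates. The same count over all genes was not taken. Cxcr5-positive cells were also deeper, with medians of 1687159 reads in deleted hosts and 1694808 in control hosts, against 1463124 in the negative cells of deleted hosts and 1582240 in those of control hosts. At 500000 reads per cell the Cblb shares were 52.7% of Cxcr5-positive and 36.2% of Cxcr5-negative cells in deleted hosts, and 39.1% and 21.6% of these classes in control hosts.

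The genes most like each member across cells were only weakly so. The 4269 genes positive in at least 10% of cells were ranked by the correlation of log2 level with the member over 736 cells, plate means subtracted; the cells share their plates and depth. Cblb was most like Rap1a (r = 0.17), Vav1 (0.15) and Zap70 (0.15), and Ubash3a like Calr (0.16), Hspa5 (0.15) and Mrpl20 (0.14). Dgka was most like S1pr1 (r = 0.19), Pyhin1 (0.17) and Samhd1 (0.16), and Dgkz like Sin3b (0.14) and Wdr18 (0.14). Cbl was most like Wbp11 (r = 0.16), Ppp3cc (0.15) and Dpp4 (0.14), and Itch like Myo9b (0.16), Gm8369 (0.15) and Tnfaip8 (0.14).

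Most genes that work with the 8 differed by less than 2-fold between the pools. Of 132 listed genes 119 had 5 CPM or more, of which 5 had a log2 ratio of 1 or more and 3 of -1 or less, against 5.98% of all 9764 genes higher and 6.71% lower. The median log2 ratio over the 119 was -0.00. All deleted plates were above all control plates for 7 of them and below for 2, against 1.81% of all genes above and 2.6% below.

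Partners and relatives of the CBL proteins were all within 2-fold, with a median log2 ratio of -0.01 over 10 measured genes. Cd6, a coreceptor that scaffolds signalling proteins, was at 885 CPM in deleted hosts and 901 CPM in control hosts. Cd5, a receptor that recruits Cbl proteins, was at 574 CPM in deleted hosts and 595 CPM in control hosts, and the adaptor gene Sh3kbp1 at 576 CPM in deleted hosts and 613 CPM in control hosts. Ubash3b, the closest relative of Ubash3a, was at 66.9 CPM in deleted hosts and 64.3 CPM in control hosts and was named after its value was seen. Its plates overlapped, unlike those of Ubash3a.

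Of 10 measured NEDD4 family and adaptor genes, 1 was past 2-fold, and 1 more was past it with a plate left out. Smurf2, a HECT ligase of the TGF-beta pathway, was at 22 CPM in deleted hosts and 8.91 CPM in control hosts, a log2 ratio of 1.22 that was 0.65 without deleted plate 2. Ndfip1, which activates Itch and Nedd4, was at 649 CPM in deleted hosts and 685 CPM in control hosts. Arrdc1, an adaptor of these ligases, was at 282 CPM in deleted hosts and 348 CPM in control hosts, and the arrestin family gene Txnip at 307 CPM in deleted hosts and 283 CPM in control hosts.

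Among 18 other ubiquitin ligases and deubiquitinases of T cell activation, Tnfaip3 was higher by more than 2-fold and Otud7b lower. With a plate left out, 1 more gene was past 2-fold. Tnfaip3 encodes A20, an NF-kappaB feedback inhibitor, and was at 512 CPM in deleted hosts (plates 383 to 576) and 137 CPM in control hosts (plates 87.9 to 236), a log2 ratio of 1.89. It was 1.73 or more with any single plate left out. Otud7b, a deubiquitinase, was at 7.35 CPM in deleted hosts and 19.3 CPM in control hosts, a log2 ratio of -1.28, and was named after its value was seen. The ligase genes Peli1 and Dtx1 were at 482 and 174 CPM in deleted hosts and at 631 and 221 CPM in control hosts, and Birc3 at 189 CPM in deleted hosts and 177 CPM in control hosts.

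Of the 8 other diacylglycerol kinase genes, 3 reached 5 CPM, and all 3 were within 2-fold. Dgkd was at 102 CPM in deleted hosts and 90.9 CPM in control hosts. Dgke was at 16 CPM in deleted hosts and 24.4 CPM in control hosts, and Dgkq at 19.1 CPM in deleted hosts and 10.6 CPM in control hosts, a log2 ratio of 0.79 that was 1.41 without control plate 2. The enzymes and sensors of diacylglycerol were within 2-fold, with a median log2 ratio of -0.07 over 14 genes, although Nf1, which turns off Ras, was at -0.77, or -1.59 without deleted plate 1. Rasgrp1 was at 363 CPM in deleted hosts and 420 CPM in control hosts, Prkcq at 592 CPM in deleted hosts and 613 CPM in control hosts, and Prkch at 643 CPM in deleted hosts and 641 CPM in control hosts. Plcg1, the lipase that makes diacylglycerol and a known target of Cbl-b and Itch, was the 1 gene of this list with separate plates, at 206 CPM in deleted hosts (plates 184 to 245) and 144 CPM in control hosts (plates 109 to 173). Its log2 ratio was 0.51, and it was named after its value was seen.

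All 17 receptor-proximal genes lay within 2-fold with overlapping plates, with a median log2 ratio of -0.03. Lck, the first kinase of the chain, was at 3110 CPM in deleted hosts and 2848 CPM in control hosts, the scaffold gene Lat at 1090 CPM in deleted hosts and 1014 CPM in control hosts, and the receptor subunit gene Cd3g at 964 CPM in deleted hosts and 983 CPM in control hosts. Among 20 other intracellular brakes, the cytokine signalling inhibitor Cish was past 2-fold, at 29.7 CPM in deleted hosts and 8.27 CPM in control hosts (log2 ratio 1.73, or 0.96 without deleted plate 3). Its plates overlapped, and it was positive in only 11 cells of deleted hosts and 5 of control hosts. With a plate left out, 5 more of these genes were past 2-fold. The phosphatase genes Ptprc, Ptpn6 and Ptpn22 were at 1958, 690 and 396 CPM in deleted hosts and at 1871, 849 and 449 CPM in control hosts.

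The 16 measured transcription factors tied to the 8 genes differed in both directions, with 2 higher and 2 lower by 2-fold or more. A further 3 were past 2-fold with a plate left out. Junb, an AP-1 subunit and a known target of Itch, was at 2890 CPM in deleted hosts and 1285 CPM in control hosts (log2 ratio 1.17), and its relative Jun at 471 CPM in deleted hosts and 284 CPM in control hosts, both with separate plates. Egr1, an early growth response factor, was at 116 CPM in deleted hosts and 296 CPM in control hosts (log2 ratio -1.34), with every deleted plate below every control plate. Egr3, of the same family, which activates Cblb in anergic T cells, was at 12.8 CPM in deleted hosts and 30.7 CPM in control hosts (log2 ratio -1.20, or -0.86 without deleted plate 3). Nfatc2, an NFAT factor named after its value was seen, was at 19.1 CPM in deleted hosts and 6.48 CPM in control hosts (log2 ratio 1.43). Ikzf1, a lymphocyte transcription factor, was at 490 CPM in deleted hosts and 455 CPM in control hosts, and Nr4a1 at 1343.5 CPM in deleted hosts and 929 CPM in control hosts. Of 11 activation genes none was past 2-fold with all plates, and 5 were past it with a plate left out. Cd69 had separate plates, at 588 CPM in deleted hosts and 303 CPM in control hosts (log2 ratio 0.95, or 1.18 without control plate 4). Tnfrsf9 was at 223 CPM in deleted hosts and 128 CPM in control hosts, with overlapping plates (log2 ratio 0.80, or 1.02 without control plate 4). The other 3, named after their values were seen, were Tnfrsf4 (0.70, or 1.82 without control plate 1), Irf4 (0.08, or 1.18 without control plate 2) and Il2ra (0.16, or -1.74 without deleted plate 3).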

How the data were processed

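The authors deposited raw read counts for every gene and well as whole numbers, not normalized, and per the submitters' processing notes they came from featureCounts 2.0.1 on mm10. For aligner, annotation and strand setting: not given in the sources used here. Per the labels' protocols, oligo(dT)-primed cDNA was amplified by PCR and tagmented, with no molecular identifiers named, so PCR copies count as separate reads and intervals cover counting error only. Each of the 8 plates had 92 cell wells and 4 control wells, and no cell well was removed. Total counts were 125197307 to 143937319 reads per deleted plate and 137968663 to 148025125 per control plate.

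From the counts, CPM was computed per cell, plate and pool. The log2 ratio is that of CPM plus 1, deleted over control, so ratios of low genes are understated. A cell was positive at 10 CPM and at least 1 read. Intervals are exact Poisson for levels and Clopper-Pearson for shares, at 95%. A gene's plates were called separate when the lowest plate of one pool was above the highest of the other. A share of 0 was given the upper limit of 3 counts. The numbers of both-positive cells that the shares give were computed within each plate. The calls were run on simulated plate counts with known changes larger than 2-fold and Poisson spread only. Real plates varied more than that, so the simulation checks the code and does not show how often the calls err.

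Members and lists were chosen with earlier results of these data known. All 8 members were named. Of each list, up to 4 genes with the largest log2 ratios of at least 1 in size at 20 CPM or more were named, plus up to 3 with the highest CPM, and the 3 genes most correlated with each frequent member, of which 1 is not reported here. Trac, Trbc2 and Ighm were not analysed here. Alternatives were other size factors (edgeR 4.0.16 in R 4.3.3), other definitions of a positive cell, thinning and leaving out plates. Python 3.11.15, numpy 2.4.6, pandas 2.3.3 and scipy 1.17.1 were used.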

Additional observations from a re-analysis of the deposited data

Results flagged for a closer look

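The share of Ubash3a-positive cells was 43.5% on deleted plate 4, apart from the 41.3% of each of the other 3 deleted plates. This is 40 positive cells against 38 on each of the others, and with 3 plates tied any other count would have been marked. In cells with 500000 reads or more, the Ubash3a shares of the deleted plates ran from 40 to 42.2%. The Dgkz level was 184.9 CPM on control plate 3, apart from the 151.4 to 156.6 CPM of the other 3 control plates. Both were marked by a gap to the nearest plate above Dixon's critical value for 4 values, in 32 sets of 4 plates. Chance marks about 1 set in 20, and the plates of a pool share their mice.

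Nedd4 was at 177.9 CPM over the 23 wells whose names end in mBM10 or mBM100, which the labels do not explain and which entered no comparison. Of these wells 22 were positive, with a median of 143 CPM and up to 873 reads in a well. Of the 736 cells, 0 were positive. The reads of Nedd4 are thus counted in these data where it is present. The 9 wells named noinput or dw held no Nedd4 read. At 6698 to 12348 reads each, they were too shallow to show a level as low as that of the cells.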

How the results depend on the processing

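Among the 8 members, 2 were past 2-fold, Cblb and Rnf128. The count was 1 to 2 with a plate left out and 1 with each cell weighted the same, where Rnf128 had a log2 ratio of 0.65. Cblb ranged from 0.92 to 1.36 and was past 2-fold in 14 of 15 settings, and Rnf128 from 0.09 to 1.75. Ubash3a ranged from 0.49 to 0.65 over the 15. Other size factors moved no member across 2-fold. Members with separate plates numbered 2 with other size factors or weights and in cells with 500000 reads or more. They also numbered 2 with any plate left out, but leaving out a plate cannot undo a separation and could only add members. The 2 members with separate shares of positive cells became 0 when 1 read made a cell positive. They were 2 with any plate left out, which again could not have undone the separation. Of all 28 pairs, 11 were found together more often than the shares give in both pools. That count was 8 in thinned cells and 5 to 11 with a plate left out (5 without control plate 2). Of the 15 pairs with 5 or more expected cells in each pool, 7 were above their shares in both, and 4 in thinned cells. The rest of the 11 involved Rnf128, which was positive in only 5 cells of deleted hosts and 2 of control hosts. Of the listed genes, 5 were higher and 3 lower by 2-fold, and with a plate left out 6 to 9 and 3 to 5. Over all genes, 198 were higher, 228 lower and 337 on separate plates at 20 CPM or more. At 5 CPM or more, 584 were higher and 655 lower. At 100 CPM or more, 13 were higher, 10 lower and 150 on separate plates, and with no minimum 1176, 1262 and 576. The longest transcript in place of all exons and the second condition on a positive cell were chosen after seeing the data. The first gave 4 members at 10 CPM per kb or more in both pools. The second gave 2 members with separate shares, and 10 of the 28 pairs above their shares in both pools. No paired analysis was possible because each genotype was 1 pooled sample and plate numbers pair nothing. The number of cells limits rare genes: a share of 0 of 368 allows up to 0.815% of cells at 10 CPM.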
